A study of Mus musculus with 39 samples.

Results

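Aminoacyl-tRNA synthetases, the enzymes that load each amino acid onto its transfer RNA, were examined in lung monocytes and monocyte-derived alveolar macrophages of mice. Members were the protein-coding genes of the counts table whose mouse symbol has the pattern of this family, a one-letter amino acid code followed by ars, with the phenylalanine subunits Farsa and Farsb, the joint glutamate and proline gene Eprs and the threonine gene Tarsl2. This gave 38 genes among 43430 rows of the table, of which 21551 were protein-coding. Of the 38 genes, 19 code for cytosolic enzymes or subunits, 17 for mitochondrial enzymes, and Gars and Kars serve both compartments. The study sorted cells from lungs of C57BL/6J mice and sequenced their RNA in 39 libraries. The 20 monocyte libraries came from naive mice, and the 19 macrophage libraries, low in Siglec F, came from mice collected 21 days after bleomycin, which damages lung tissue and is followed by scarring. Mice of each cell type were young or old, and were given saline or ISRIB, an inhibitor of the integrated stress response that acts through eIF2B. In the bleomycin mice dosing was daily from day 7. Each of these 8 groups had 5 libraries, except young ISRIB macrophages with 4. Sample labels put young mice at 8 to 12 weeks and old mice beyond 18 months of age. The design text instead has 3 to 5 months for young and 18 to 24 months for old mice. Since only macrophages came from injured lungs, effects of cell type and of bleomycin cannot be told apart. No genetic change is named for any group, and nothing in the labels says that libraries came from separate mice, so p-values measure the spread between these libraries.

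Each synthetase pairs 1 amino acid with its own tRNAs, and the charged tRNA then brings that amino acid to the ribosome. Most amino acids have separate genes for the cytosol and for the mitochondrion, where the enzymes serve the few proteins encoded by mitochondrial DNA. In the cytosol a group of synthetases is bound together with scaffold proteins in the multi-synthetase complex. When an amino acid runs short, uncharged tRNA activates the kinase GCN2 (gene Eif2ak4), which phosphorylates eIF2, slows translation and raises the transcription factor ATF4. Many cytosolic synthetase genes are known ATF4 targets, and ISRIB counters the effect of phosphorylated eIF2.

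Library totals ran from 4595331 to 16056708 counts. Markers of the labelled cell types were present. All 10 alveolar macrophage markers and all 8 general macrophage markers were higher in macrophages at both ages, and 9 of 10 monocyte markers were lower. The summed level of 8 B cell markers was 6.83 to 30.1 CPM in young saline macrophages, 9.44 to 24.2 CPM in young ISRIB macrophages, 23.03 to 428.5 CPM in old saline macrophages and 152.8 to 592.6 CPM in old ISRIB macrophages. In monocytes that sum was 133.9 to 284.3 CPM. The 8 epithelial markers summed to 3.17 to 83.9 CPM in monocytes and 51.8 to 132.3 CPM in macrophages, and 6 endothelial markers to 13.9 to 44.0 CPM and 116.2 to 265.5 CPM. Of 5 endothelial markers tested, 1 was called higher and 1 lower in macrophages at each age. Among all genes tested 31% were called higher and 29% lower in young, and 29.7% and 27.3% in old mice. The 10 proliferation genes summed to 91.8 to 151.5 CPM in monocytes and 205.1 to 742.1 CPM in macrophages, and all 10 were called higher in macrophages at both ages. The part of these in the results below was not tested. In sorted bulk cells, fewer cells of a type and less RNA per cell cannot be told apart.

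All 38 genes passed the filter on low counts in every comparison. CPM below are counts scaled to library size with TMM factors, which corrects for differences in library composition, over all 39 libraries. The 21 cytosolic and dual genes together held 1304 ± 87.1 CPM (SD, n = 5) in young saline monocytes while young macrophages given saline held 1607 ± 40.9 CPM (SD, n = 5). In old saline mice the same sums were 1374 ± 61.7 CPM (SD, n = 5) and 1548 ± 79.0 CPM (SD, n = 5). The lowest macrophage library of young saline mice, at 1552 CPM, was above the highest monocyte library, at 1450 CPM, whereas in old mice 1431 CPM in macrophages fell below the highest monocyte value of 1447 CPM. The 16 mitochondrial genes other than Lars2 summed to 214.6 to 239.4 CPM in young saline monocytes and 253.9 to 293.9 CPM in young saline macrophages.

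Divided by exon length, to allow for the length of genes, cytosolic enzymes stood above mitochondrial ones. The median over the 19 cytosolic genes of the mean level was 13.7 CPM per kilobase in macrophages, against 2.67 for the 17 mitochondrial genes. Nars, for asparagine (ENSMUSG00000024587, chr18:64499647-64516652), was the highest cytosolic gene at 37.98 ± 2.97 CPM per kilobase in macrophages (SD, n = 19) and 35.8 ± 5.06 in monocytes (SD, n = 20). Its saline libraries held 170.0, 177, 146, 174 and 163 CPM in young and 171, 178, 163, 152 and 154 CPM in old macrophages. The monocyte values overlapped these, at 172, 150.0, 134, 164 and 143 CPM in young and 151, 138, 174, 194 and 133 CPM in old mice. The dual glycine gene Gars stood at 48.4 ± 3.95 CPM per kilobase in macrophages, above Nars, and at 27.9 ± 2.79 in monocytes, below it. Tarsl2, a second cytosolic threonine enzyme, was the lowest cytosolic gene, at 2.04 ± 0.381 and 0.424 ± 0.159 CPM per kilobase in macrophages and monocytes. Among mitochondrial enzymes Mars2, for methionine, was lowest in macrophages at 0.589 ± 0.211 CPM per kilobase, and Nars2, for asparagine, in monocytes at 0.504 ± 0.159. Ranks per kilobase depend on the exon length pooled over all transcripts, which was 11294 bases for Mars2 and 3094 for Pars2. Before division Pars2 was below Mars2 in macrophages, at 3.085 and 6.65 CPM.

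**Figure D1:**
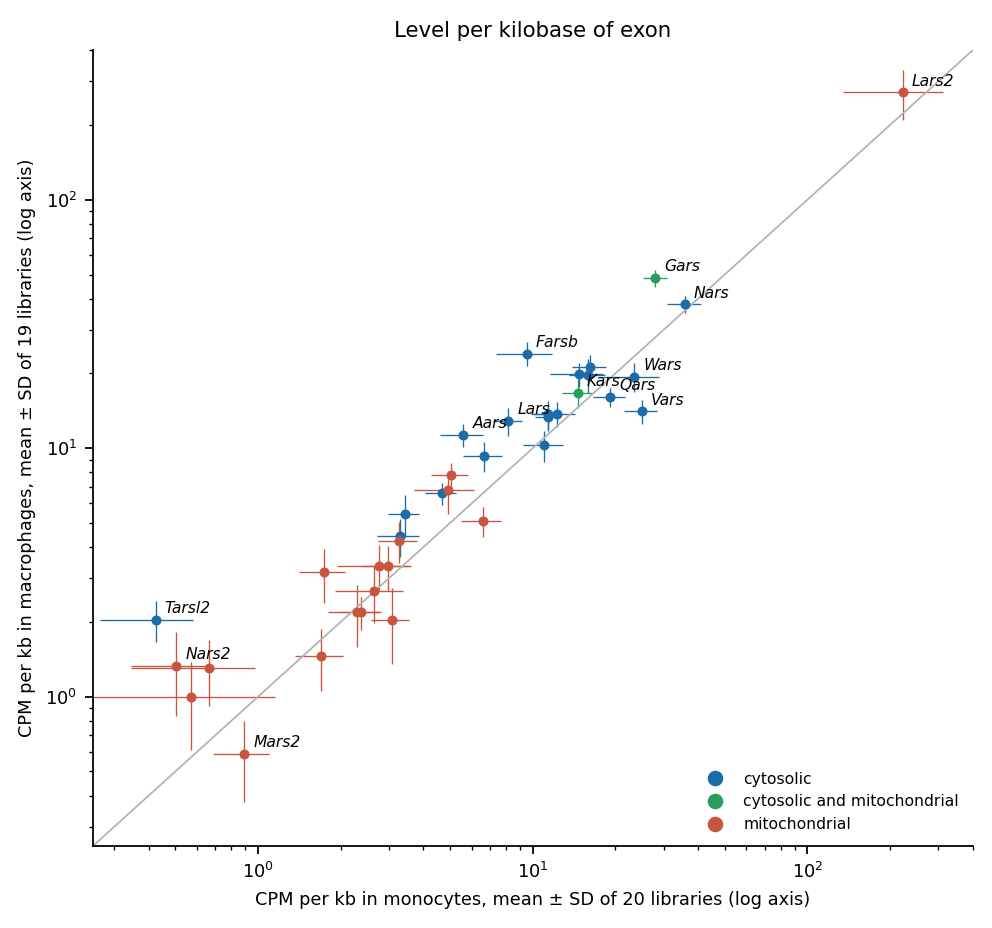
Mean level per kilobase of exon of the 38 genes in monocytes (horizontal, 20 libraries) and macrophages (vertical, 19 libraries), both on log axes, with SD bars over libraries of all treatments and ages. Lars2 stands far above the rest, Farsb, Aars and Gars lie above the line of equal levels, and Vars and Qars lie below it.

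Lars2, the mitochondrial leucine enzyme (ENSMUSG00000035202, chr9:123366927-123462666), stood apart from the family. It held 896402 counts over all libraries and 271 ± 61.3 CPM per kilobase in macrophages (SD, n = 19), and 223 ± 88.3 in monocytes (SD, n = 20). Its share of all counts ran from 0.129% to 0.435% in monocytes and from 0.146% to 0.444% in macrophages, and libraries within a group differed up to several-fold. Young saline monocytes, for example, held 4635, 1511, 1884, 2552 and 1236 CPM, and young saline macrophages 2844, 3363, 4481, 2937 and 1473 CPM. Monocytes of old saline mice held 1912, 1925, 3092, 1732 and 2617 CPM and old saline macrophages 3599, 3126, 2466, 3292 and 3060.0 CPM, so the cell types overlapped at both ages. It was not called in any of the 17 comparisons, and without young saline monocyte replicate 1 it was called higher in young macrophages (0.75, edgeR adjusted p 0.0152). A transcript of Lars2 shares 72 bases at 98.6% identity with Gm15564, and Lars2 counts moved with those of Gm42418, a gene chosen after the values were seen. Over the 19 macrophage libraries the shares of counts of Lars2 and Gm42418 had a Pearson r of 0.95 (permutation p 2e-05, the smallest that 100000 resamples can give, adjusted 4e-05; Spearman rho 0.928, permutation p 2e-05, adjusted 4e-05). Without the 2 libraries farthest from the median r was 0.891, and over deviations from group means it was 0.963. Monocyte libraries fell into 5 with over 1% of counts on Gm42418 and 15 with less, and within those 15 r was 0.974 (permutation p 2e-05, adjusted 4e-05; rho 0.968, permutation p 2e-05, adjusted 4e-05), or 0.964 without the 2 farthest. The same relation with mt-Rnr2, mitochondrial large ribosomal RNA, had r = 0.691 in macrophages (permutation p 0.0007, adjusted 0.000933; rho 0.588, permutation p 0.00912, adjusted 0.0109), with 0.491 without the 2 farthest and 0.921 over deviations from group means. Its r was 0.535 over the 15 monocyte libraries (permutation p 0.0379, adjusted 0.0414; rho 0.514, permutation p 0.0509, adjusted 0.0509), or 0.437 without the 2 farthest and 0.541 over deviations from group means. These adjusted values cover 6 relations, each with both coefficients. What drives the shared movement was not tested, and sums over mitochondrial enzymes are therefore given without Lars2.

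**Figure D2:**
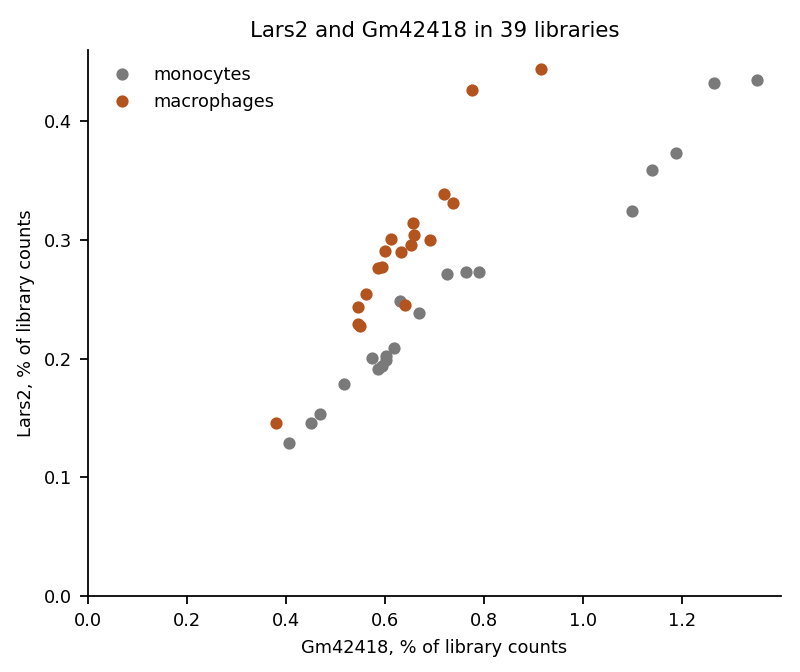
Share of library counts on Lars2 (vertical, percent) against Gm42418 (horizontal, percent), 1 point a library, grey for 20 monocyte and brown for 19 macrophage libraries. Both cell types form a rising band, and 5 monocyte libraries with over 1% of counts on Gm42418 lie apart at the right.

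The main difference within the family lay between the cell types. Macrophages of young saline mice had more RNA of 15 of the 38 synthetase genes than monocytes, and less of 4. The background was high, since 31% of the 13587 genes tested were called higher and 29% lower, so calls in the higher direction were near the background and calls in the lower direction were fewer. In old saline mice 13 were called higher and 3 lower, where 29.7% and 27.3% of all genes were. The median log2 fold change of the members was 0.28 in young and 0.30 in old mice, and that of all genes tested was 0.01 and 0.00. Calls here are adjusted p-values under 0.05 in the quasi-likelihood test of edgeR over all genes tested. Called higher at both ages were 11 genes, among them Aars, Eprs, Farsb, Gars, Iars2, Lars, Nars2, Tars, Tarsl2 and Yars. Hars, Iars, Kars and Rars2 were called higher in young mice alone and Sars and Tars2 in old mice alone, and of these Kars was called in the test of the difference between the ages. Hars2, Qars and Vars were called lower at both ages, Wars in young mice alone, and 17 genes at neither age. In 12 higher genes and 1 lower gene no young macrophage library overlapped a monocyte library, against 22.1% and 17.9% of all genes. In old mice these were 9 and 2 genes, against 22.5% and 20.7%.

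**Figure D3:**
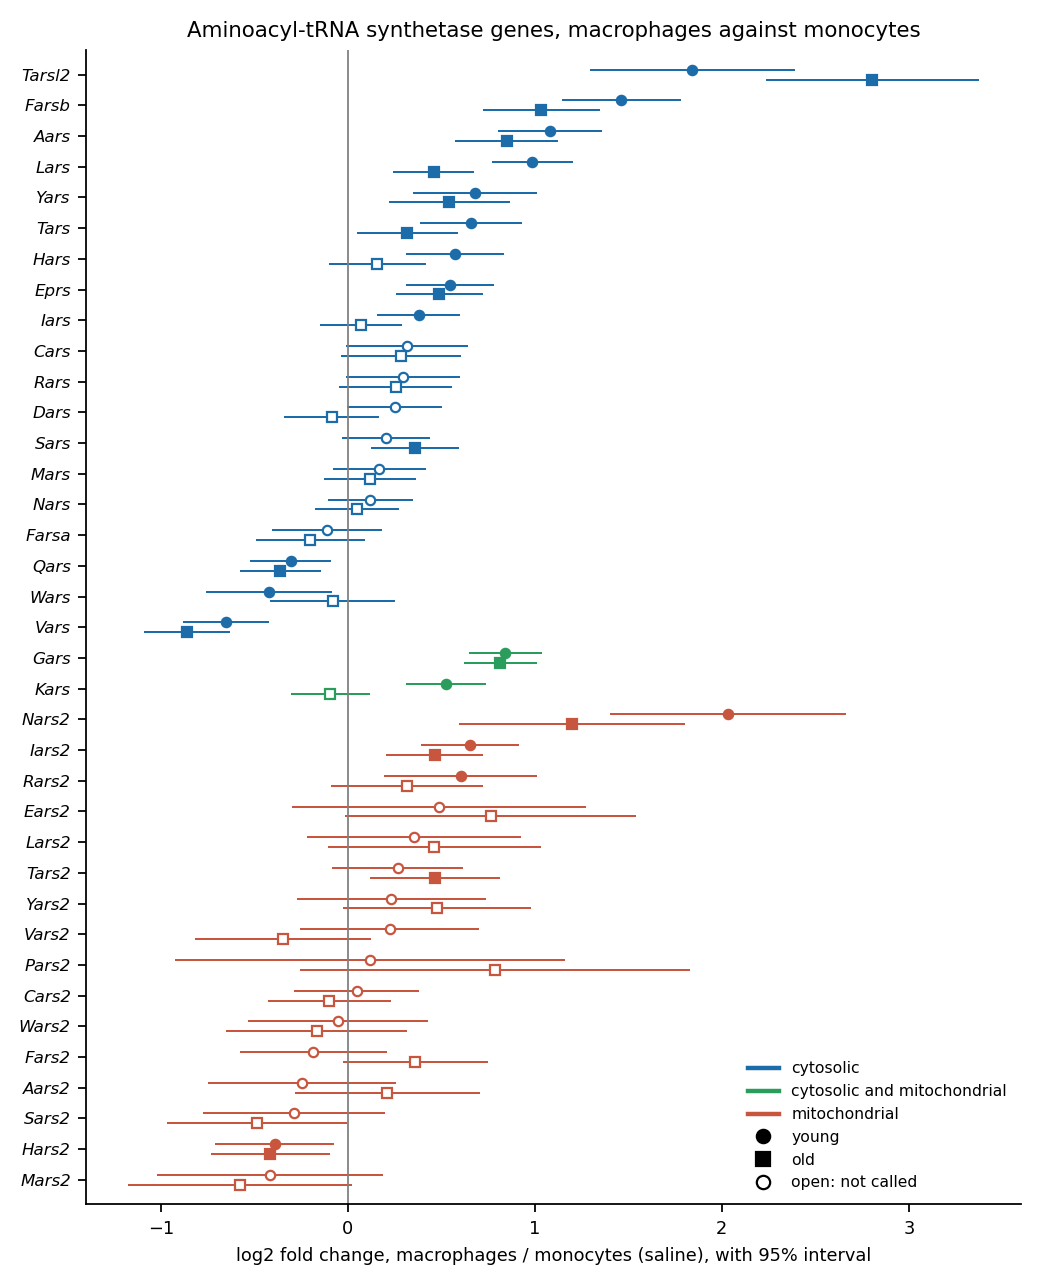
Log2 fold change of synthetase genes, macrophages against monocytes in saline mice, with 95% intervals, circles for young and squares for old mice, filled where called. Tarsl2, Nars2, Farsb, Aars and Gars lie right of 0 at both ages, and Vars, Qars and Hars2 left of it.

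Among cytosolic enzymes the phenylalanine enzyme showed a split between its subunits. It is built of alpha chains from Farsa and beta chains from Farsb. Farsb (ENSMUSG00000026245, chr1:78417975-78488897) held 22.7, 16.5, 19.3, 30.7 and 27.5 CPM in young saline monocytes and 73.7, 67.1, 55.5, 57.6 and 65.6 CPM in young saline macrophages. The old saline libraries held 29.2, 33.5, 29.2, 28.7 and 29.1 CPM in monocytes and 63.3, 54.6, 59.3, 61.1 and 68.7 CPM in macrophages. Every macrophage library was above every monocyte library, and the log2 fold change was 1.46 ± 0.16 (SE) in young and 1.04 ± 0.15 in old mice (edgeR adjusted p 1.57e-10 and 2.37e-07). Farsa, the partner subunit, held 41.8 to 53.7 CPM in young saline monocytes and 38.6 to 53.3 CPM in macrophages. Its difference was -0.11 ± 0.14 in young and -0.20 ± 0.14 in old mice and was not called (edgeR adjusted p 0.516 and 0.229). The 95% intervals of the Farsa differences, -0.40 to 0.18 and -0.49 to 0.09, lay below those of Farsb, 1.15 to 1.78 and 0.73 to 1.34. The difference between the subunits itself was not tested. Of the exon length of Farsb, 9.47% overlaps the gene Sgpp2 on the other strand, and none of that of Farsa overlaps another gene.

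Tarsl2 (ENSMUSG00000030515, chr7:65644898-65692091) had the widest gap of the cytosolic genes, from a low level. Monocytes of young saline mice held 4.21, 1.64, 4.22, 3.48 and 4.92 CPM and macrophages 13.9, 9.32, 11.9, 16.1 and 15.1 CPM. In old saline mice monocytes held 2.87, 1.59, 0.889, 2.898 and 1.92 CPM and macrophages 13.9, 17.7, 13.2, 11.2 and 16.03 CPM. No library overlapped, and the log2 fold change was 1.84 ± 0.27 and 2.81 ± 0.28 (edgeR adjusted p 1.92e-07 and 3.15e-11). For Tarsl2 the difference between the ages was not called. Tars, the main cytosolic threonine enzyme, was higher by 0.66 ± 0.13 in young mice (edgeR adjusted p 4.83e-05) and by 0.32 ± 0.13 in old mice (adjusted p 0.0371). The call in old mice was lost without any of 7 of the 10 libraries, old saline macrophage replicates 1, 2 and 3 and monocyte replicates 1, 2, 3 and 5 (adjusted p up to 0.0783), and when low counts were left unfiltered (0.0808).

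Aars, for alanine (ENSMUSG00000031960, chr8:111033144-111057664), was higher in macrophages at both ages. The young monocyte libraries held 58.3, 53.98, 51.2, 31.3 and 62.1 CPM of it and macrophages 130.1, 98.6, 97.7, 111 and 109 CPM. The old monocyte libraries held 46.96, 73.95, 61.6, 64.7 and 45.95 CPM and macrophages 114, 109, 113, 92.7 and 101 CPM. The groups did not overlap, with a log2 fold change of 1.08 ± 0.13 in young and 0.85 ± 0.13 in old mice (edgeR adjusted p 7.07e-09 and 8.60e-07). Exons of Exosc6 on the same strand cover part of the 15.1% of Aars exon length that overlaps other genes.

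Lars, the cytosolic leucine enzyme and a member of the multi-synthetase complex (ENSMUSG00000024493, chr18:42202298-42262194), held 40.8, 38.6, 40.2, 36.2 and 39.1 CPM in young saline monocytes and 78.9, 92.5, 76.6, 73.1 and 65.8 CPM in macrophages. Old saline monocytes held 55.1, 46.2, 46.1, 40.4 and 50.8 CPM and macrophages 64.8, 75.8, 72.5, 54.1 and 60.2 CPM. The young groups were apart, and in old mice 1 macrophage library lay within the monocyte range. The log2 fold change was 0.99 ± 0.10 in young and 0.46 ± 0.10 in old mice (edgeR adjusted p 1.50e-10 and 2.34e-04), and the difference between the ages, -0.53 ± 0.15, was not called (adjusted p 0.109).

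Gars, which charges glycine in both compartments (ENSMUSG00000029777, chr6:55038007-55079500), held 102, 76.8, 82.1, 77.3 and 75.7 CPM in young saline monocytes and 153, 137, 165, 144 and 143 CPM in macrophages. Monocytes of old saline mice held 77.5, 74.2, 101, 83.96 and 95.8 CPM and macrophages 156, 157, 162, 139 and 146 CPM. All macrophage libraries were higher, with log2 fold changes of 0.84 ± 0.09 and 0.81 ± 0.09 in young and old mice (edgeR adjusted p 5.34e-10 and 1.13e-09). Its values lie outside the rule for full description and were added after they were seen.

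Vars, the valine enzyme, which binds elongation factor 1, went the other way (ENSMUSG00000007029, chr17:35000987-35016322). Young saline monocytes held 143, 131, 142, 139 and 126 CPM and macrophages 91.1, 93.4, 79.0, 93.2 and 77.1 CPM. The old monocyte libraries held 142, 136, 118, 130.3 and 171 CPM and macrophages 71.1, 82.9, 84.5, 75.5 and 70.04 CPM. No macrophage library reached the monocyte range, with differences of -0.65 ± 0.11 and -0.86 ± 0.11 (edgeR adjusted p 3.29e-06 and 1.59e-08). Of 4 elongation factor 1 subunits tested, none was called higher and 2 lower at each age. Among all genes 31% were called higher and 29% lower in young mice, and 29.7% and 27.3% in old mice. The 2 lower subunits were Eef1a1 (-0.57 ± 0.08 in young and -0.53 ± 0.08 in old mice) and Eef1b2 (-0.55 ± 0.13 and -0.58 ± 0.13), whose reads can be split with processed pseudogenes.

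Qars, the glutamine enzyme of the multi-synthetase complex (ENSMUSG00000032604, chr9:108507706-108515941), was lower in macrophages. Monocytes of young saline mice held 161, 114, 113, 113 and 146 CPM and macrophages 117, 101, 97.9, 106 and 102 CPM. Old saline monocytes held 121, 108, 149.8, 137 and 137 CPM and macrophages 97.3, 109.7, 108, 79.8 and 113 CPM. The groups overlapped at both ages, and the differences were -0.31 ± 0.10 and -0.36 ± 0.10 (edgeR adjusted p 0.0113 and 0.003099). Without young saline monocyte replicate 1, the highest library, the call in young mice was lost (adjusted p 0.0757).

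Wars, for tryptophan (ENSMUSG00000021266, chr12:108860030-108894174), is the synthetase known to be induced by interferon gamma. The young monocyte libraries held 127, 86.8, 96.3, 56.6 and 70.98 CPM and macrophages 61.5, 75.9, 46.5, 79.2 and 64.95 CPM. Monocytes of old saline mice held 65.8, 80.6, 81.6, 80.1 and 74.2 CPM and macrophages 70.7, 68.98, 68.01, 82.3 and 71.5 CPM. The groups overlapped, with -0.42 ± 0.16 in young mice (edgeR adjusted p 0.0261) and -0.08 ± 0.16 in old mice (adjusted p 0.6899). Omission of young saline monocyte replicate 1 or 3 or macrophage replicate 1 or 3 ended the call in young mice (adjusted p up to 0.183). Of 13 interferon gamma-induced genes tested, 2 were called higher and 10 lower in young macrophages, where 31% and 29% of all genes were. In old macrophages 0 were called higher and 10 lower, where 29.7% and 27.3% of all genes were. Irf1, a transcription factor of that response, differed by -1.95 ± 0.28 and -2.09 ± 0.28 (edgeR adjusted p 1.74e-07 and 4.42e-08). A link of these genes to the level of Wars was not tested.

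The remaining cytosolic calls were smaller. Yars, for tyrosine, was higher by 0.68 ± 0.16 and 0.54 ± 0.16 and Eprs by 0.55 ± 0.11 and 0.49 ± 0.11 in young and old mice. In young mice Hars, for histidine, was higher by 0.57 ± 0.13 (edgeR adjusted p 1.75e-04) and Iars, for isoleucine, by 0.38 ± 0.11 (adjusted p 0.00253). Sars, for serine, was higher by 0.36 ± 0.11 in old mice (edgeR adjusted p 0.00655). Iars shares 1656 bases at 96.0% identity with the processed pseudogene Gm4849, which held 23 counts over all libraries against 21966 for Iars. Cars, Dars, Mars, Rars and Farsa were called at neither age, with log2 differences of -0.11 to 0.32 in young mice, and neither was Nars (0.12 ± 0.11 and 0.05 ± 0.11). Members not called in young mice passed there under some alternatives, namely Cars (adjusted p 0.036) and Rars (0.0221) under limma voom, Dars without macrophage replicate 3 (0.0408), Sars without monocyte replicate 4 (0.0187), Cars without monocyte replicate 4 (0.00964) or macrophage replicate 4 (0.0319), and Rars without monocyte replicate 4 (0.00639) or 5 (0.0391) or macrophage replicate 4 (0.0253).

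The 8 synthetases of the multi-synthetase complex did not move as a block. Of them, Eprs, Iars, Kars and Lars were called higher in young macrophages and Qars lower, and in old mice Eprs and Lars were called higher and Qars lower. Beside these stand 31% of all genes called higher and 29% lower in young mice, and 29.7% and 27.3% in old mice. The 3 scaffold proteins split too. Aimp2 was higher by 1.37 ± 0.26 in young and 0.79 ± 0.25 in old mice (edgeR adjusted p 1.62e-05 and 0.00594), from 3.203 ± 1.005 CPM in young monocytes to 8.39 ± 1.02 CPM in young macrophages (SD, n = 5 each). Eef1e1, also called AIMP3, was higher by 1.08 ± 0.23 and 0.68 ± 0.23 (edgeR adjusted p 1.37e-04 and 0.0108). Aimp1 was lower, at -0.51 ± 0.16 and -0.47 ± 0.16 (edgeR adjusted p 0.00639 and 0.0117), with 41.6 ± 10.4 CPM in young monocytes and 29.2 ± 6.36 CPM in young macrophages (SD, n = 5 each).

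Mitochondrial enzymes were led by Nars2, for asparagine (ENSMUSG00000018995, chr7:96951505-97064758). Young saline monocytes held 2.42, 3.06, 2.39, 0.818 and 3.24 CPM and macrophages 10.7, 7.22, 12.2, 9.55 and 10.6 CPM, with no overlap. The old monocyte libraries held 2.55, 4.301, 5.002, 4.603 and 1.78 CPM and macrophages 8.33, 9.53, 10.6, 8.87 and 4.96 CPM, where the lowest macrophage library lay just below the highest monocyte library. The log2 fold change was 2.03 ± 0.31 in young and 1.20 ± 0.30 in old mice (edgeR adjusted p 4.50e-07 and 7.04e-04). For Nars2 too the difference between the ages was not called. The cytosolic counterpart Nars was called at neither age.

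Iars2, for isoleucine, was higher by 0.65 ± 0.13 and 0.47 ± 0.13, though 24.2% of its exon length overlaps genes on the other strand. Rars2, for arginine, was higher in young mice by 0.60 ± 0.20 (edgeR adjusted p 0.00895). Tars2, for threonine, was higher in old mice by 0.47 ± 0.17 (edgeR adjusted p 0.0174), a call lost without old saline macrophage replicate 3 or monocyte replicate 5 (adjusted p up to 0.0764).

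Hars2, for histidine (ENSMUSG00000019143, chr18:36783008-36792562), was the mitochondrial gene called lower. Monocytes of young saline mice held 24.1, 24.1, 36.9, 32.7 and 29.6 CPM and macrophages 18.97, 26.6, 23.3, 20.1 and 23.1 CPM. Monocytes of old saline mice held 28.6, 30.9, 25.2, 28.2 and 26.1 CPM and macrophages 20.1, 18.8, 21.6, 21.6 and 22.1 CPM, without overlap. The differences were -0.39 ± 0.15 and -0.41 ± 0.15 (edgeR adjusted p 0.02795 and 0.0204). The call in young mice was lost without macrophage replicate 1 or 4 or monocyte replicate 3 or 4, or without the filter (adjusted p up to 0.117), and that in old mice without monocyte replicate 2 (0.0521). Hars2 and Hars lie head to head on chromosome 18, and their exons overlap over 4.56% of the length of Hars2 and 7.97% of that of Hars.

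Mars2, for methionine (ENSMUSG00000046994, chr1:55237177-55248470), and Sars2, for serine (ENSMUSG00000070699, chr7:28741992-28753871), had negative differences that were not called. Mars2 held 9.15, 9.07, 10.8, 5.72 and 11.6 CPM in young saline monocytes, 4.23, 6.17, 7.598, 10.7 and 6.22 CPM in young macrophages, 6.8, 15.4, 10.2, 9.55 and 9.33 CPM in old monocytes and 7.89, 4.71, 9.16, 6.58 and 6.01 CPM in old macrophages. Its differences were -0.42 ± 0.30 and -0.58 ± 0.29 (edgeR adjusted p 0.224 and 0.0916). Sars2 held 8.42, 9.18, 9.004, 10.4 and 10.9 CPM in young saline monocytes, 6.43, 9.84, 6.63, 9.69 and 6.66 CPM in young macrophages, 11.1, 9.16, 8.89, 13.6 and 12.5 CPM in old monocytes and 7.22, 11.1, 9.54, 5.01 and 6.54 CPM in old macrophages. Its differences were -0.29 ± 0.24 and -0.48 ± 0.24 (edgeR adjusted p 0.299 and 0.0773). For both genes the groups overlapped, and low counts left wide intervals, in old mice -1.17 to 0.02 for Mars2 and -0.96 to -0.01 for Sars2. Aars2, Cars2, Ears2, Fars2, Lars2, Pars2, Vars2, Wars2 and Yars2 were called at neither age as well. Under limma voom Ears2 (0.80, adjusted p 0.0357) and Sars2 (-0.49, adjusted p 0.0405) were called in old mice. Omission of 1 library also gave calls, for Pars2 in young mice without monocyte replicate 4 (adjusted p 0.0253), and in old mice for Ears2 without monocyte replicate 3 (0.0493), Sars2 without macrophage replicate 2 (0.0286) and Vars2 without macrophage replicate 3 (0.0487).

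Mitochondria have no glutaminyl-tRNA synthetase of their own in this family and make glutaminyl-tRNA by an amidotransferase instead. Of 9 genes for that enzyme, formylation of the initiator tRNA, tRNA ends and elongation, 4 were called higher and 1 lower in young macrophages. In old macrophages 2 were called higher and 2 lower. The shares of all genes called higher and lower were 31% and 29% in young and 29.7% and 27.3% in old mice. Qrsl1, the catalytic amidotransferase subunit, was higher by 1.31 ± 0.32 in young mice (edgeR adjusted p 5.33e-04). In old saline mice Qrsl1 held 8.56 ± 3.47 CPM in monocytes and 8.34 ± 3.72 CPM in macrophages (SD, n = 5 each). Gatb, another subunit, was higher by 0.74 ± 0.23 and Gatc, the third, was lower (-0.60 ± 0.16) in old mice (both called, with an edgeR adjusted p of 0.005901 for Gatb). Mtfmt, which formylates the initiator methionyl-tRNA, was lower at both ages (-0.72 ± 0.20 and -0.78 ± 0.19).

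**Figure D4:**
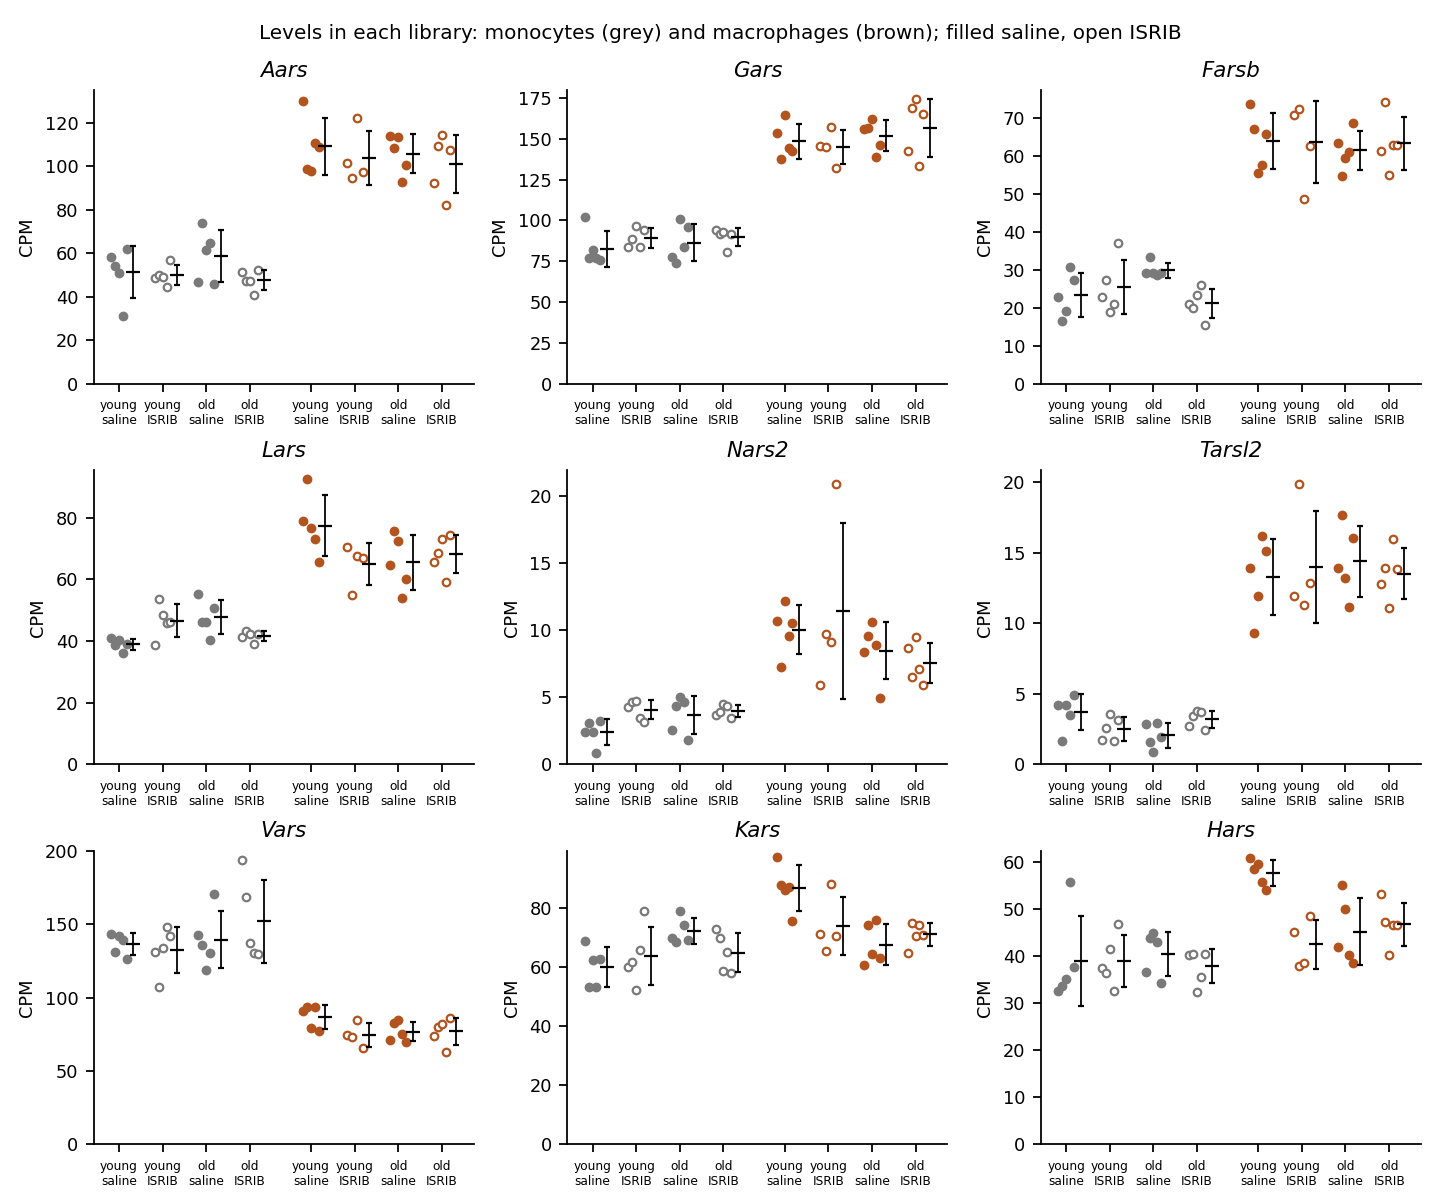
CPM of 9 genes in each library of the 8 groups (grey monocytes, brown macrophages, filled saline, open ISRIB), with mean and SD bars beside each group. Aars, Gars, Farsb, Lars, Nars2 and Tarsl2 have higher means and Vars lower means in macrophages under each treatment. Hars overlaps between the cell types at each age and treatment, and Kars in all but young saline mice.

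The ATF4 site was looked for in promoters because this factor is known to drive synthetase genes. RefSeq windows of the build GRCm38.p6, from 250 bases before to 50 after a transcript start, were matched by symbol for 28 of the 38 genes, in 29 windows. The cytosolic genes Cars, Hars, Lars, Nars, Rars, Vars and Wars had no window and were not searched. The CARE motif, the ATF4 site, was searched on both strands as TGATGNAA, where N is any base. It was present in 5 of 29 windows, all 5 among the 14 windows of cytosolic or dual enzymes and 0 among the 15 of mitochondrial ones. Of 32851 windows of all genes in the table, 3.97% held it. For each of these genes the 30 bases around 1 match are printed, because these are the searched members whose windows carry the motif. Stretches read 5′ to 3′ on the strand of the gene, with the match in capitals.
Yars, chr4:129189895-129189924 (+): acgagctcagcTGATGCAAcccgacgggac
Gars, chr6:55037960-55037989 (+): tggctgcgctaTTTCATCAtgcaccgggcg
Aars, chr8:111033840-111033869 (+): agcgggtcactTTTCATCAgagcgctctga
Iars, chr13:49682126-49682155 (+): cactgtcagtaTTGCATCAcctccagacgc
Tars, chr15:11399655-11399684 (-): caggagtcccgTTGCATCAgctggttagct
The match in Gars began 30 bases before the start, and that in Tars 15 bases before. The matches in Yars, Iars and Aars began 4, 8 and 10 bases after the start. All printed matches but that in Yars lie on the opposite strand, where the gene strand reads TTGCATCA or TTTCATCA. The upstream 250 bases of Gars are shown whole, because this gene was higher in every macrophage library, with the match again in capitals.
Gars, chr6:55037751-55038000 (+): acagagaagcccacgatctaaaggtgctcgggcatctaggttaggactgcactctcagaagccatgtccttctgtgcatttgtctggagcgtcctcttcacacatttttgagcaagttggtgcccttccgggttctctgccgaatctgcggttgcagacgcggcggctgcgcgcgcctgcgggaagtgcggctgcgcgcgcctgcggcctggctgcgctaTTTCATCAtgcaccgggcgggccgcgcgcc
All 5 genes with the motif in a window, Aars, Gars, Iars, Tars and Yars, were called higher in young macrophages. In old macrophages 4 of 5 were, Iars being the exception. Of all genes 31% and 29.7% were called higher in young and old macrophages. The call of Tars in old mice is the one lost on omission of single libraries, above. Of 9 cytosolic or dual genes with a window and no match, 4 were called higher at each age. These were Eprs, Farsb, Kars and Tarsl2 in young mice, and Eprs, Farsb, Sars and Tarsl2 in old mice. The E-box, searched as CACGTG, which reads the same on both strands, was in 5 of 29 windows (Farsb, Ears2, Aars, Iars and Tars) and in 7.15% of all windows. A match describes letters and not binding, and a link of the motif to the calls was not tested.

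Genes around the synthetases were called in both directions. Of 26 known ATF4 targets tested, 10 were called higher and 8 lower in young macrophages, and 12 higher and 7 lower in old ones, beside 31% and 29% of all genes in young and 29.7% and 27.3% in old mice. Phgdh, the first enzyme of serine synthesis, was higher by 5.03 ± 0.56 in young and 4.75 ± 0.50 in old mice. Gdf15, a stress cytokine, was higher by 4.46 ± 0.57 and 5.66 ± 0.54. Ddit4, an inhibitor of mTORC1, was lower (-6.82 ± 0.52 and -4.78 ± 0.45), as was Ppp1r15a, which helps to dephosphorylate eIF2 (-3.61 ± 0.24 and -2.46 ± 0.23). These 4 genes had edgeR adjusted p-values of at most 1.02e-08. Atf4 itself, named outside the rule, was lower at -0.98 ± 0.17 and -0.43 ± 0.17 (edgeR adjusted p 3.79e-06 and 0.0264). The shares of all genes given above also apply to the lists that follow. Of 9 amino acid sensing genes, 4 were called higher and 1 lower at each age. Among them Eif2ak4, for the kinase GCN2, was higher by 1.08 ± 0.13 and 1.05 ± 0.13, and Rragc, for a GTPase that brings mTORC1 to lysosomes, by 1.39 ± 0.10 and 1.49 ± 0.10. Of 4 genes that edit mischarged tRNA, 2 were called higher in young mice and 1 in old mice, Dtd2 at both ages (0.99 ± 0.26 and 0.67 ± 0.25). Of 6 genes for charging and inserting selenocysteine, 1 was called higher and 1 lower in young mice, and 1 higher and 2 lower in old mice. Sephs1, a homologue of the enzyme that makes selenophosphate, was higher (0.52 ± 0.11 and 0.47 ± 0.11) and Secisbp2, which binds the selenocysteine insertion element, lower (-0.86 ± 0.14 and -0.62 ± 0.14) at both.

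Whether ISRIB alters the family was asked in each cell type and at each age. No synthetase gene was called. In old macrophages 0 of 38 members were called, where 0.0% of the 12171 genes tested were. In young macrophages it was 0 of 38, again against 0.0%, and with both ages averaged 0 of 38 against 0.83%. In monocytes 0 of 38 were called in old, in young and in averaged mice, against 0.0% of the 12170 genes in each. The difference of the ISRIB effect between old and young mice called 0 of 38 in macrophages and in monocytes, against 0.0% of all genes in both. At an unadjusted p under 0.05 edgeR counted 2 members in old macrophages, against 9.14% of all genes, 4 in young macrophages (12.4%), 5 in old monocytes (7.54%) and 3 in young monocytes (6.65%). With ages averaged it counted 2 in macrophages (16.6%) and 2 in monocytes (7.49%), and for the difference between ages 2 (5.1%) and 6 (7.11%). DESeq2 and limma voom called 0 of 38 in these comparisons, except that DESeq2 called Hars in young macrophages (adjusted p 0.0403). In old macrophages the 95% intervals of all 21 cytosolic and dual genes lay between -0.48 and 0.62 on the log2 scale, and those of 36 of the 38 members within 2-fold. In old monocytes the intervals of 35 members lay within 2-fold.

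Hars, for histidine (ENSMUSG00000001380, chr18:36766528-36783205), had the smallest p for ISRIB in young macrophages and is described after its values were seen. Young macrophages held 60.8, 58.4, 59.5, 55.7 and 53.96 CPM with saline and 45.0, 37.8, 38.5 and 48.5 CPM with ISRIB. No ISRIB library reached the saline range, a pattern met by 1 member in the lower direction and by 1.78% of all genes. The difference was -0.44 ± 0.12 (edgeR adjusted p 0.128). Old macrophages held 41.9, 55.1, 49.97, 40.2 and 38.6 CPM with saline and 53.1, 47.1, 40.3, 46.5 and 46.6 CPM with ISRIB, a difference of 0.05 ± 0.11 (adjusted p 0.936). The test of the difference between the ages gave 0.49 ± 0.16 (edgeR adjusted p 0.869). Young monocytes held 32.6 to 55.6 CPM with saline and 32.5 to 46.9 CPM with ISRIB, and old monocytes 34.3 to 44.8 and 32.4 to 40.5 CPM.

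In old monocytes Dars, Farsb and Pars2 were lower with ISRIB in every library than in any saline library, 3 members against 0.616% of all genes, and none was called. Farsb held 29.2, 33.5, 29.2, 28.7 and 29.1 CPM with saline and 21.1, 19.97, 23.4, 25.9 and 15.6 CPM with ISRIB, a difference of -0.52 ± 0.19 (edgeR adjusted p 0.535). Dars, for aspartate, held 63.5, 60.5, 73.8, 55.2 and 56.1 CPM and 43.9, 50.6, 45.8, 52.2 and 48.5 CPM, a difference of -0.38 ± 0.13 (adjusted p 0.509 by edgeR). Pars2, for mitochondrial proline, was at 1.38, 1.87, 1.78, 1.45 and 2.33 CPM and 1.11, 1.198, 0.362, 1.01 and 0.755 CPM, with a 95% interval of -2.28 to 0.32.

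Genes with clear differences between the cell types were not called with ISRIB. Aars held 102, 94.8, 122 and 97.5 CPM in young and 92.1, 109, 114, 82.4 and 107 CPM in old ISRIB macrophages, and both groups overlapped those given saline. Gars held 146, 145, 157 and 132 CPM and 142, 169, 174, 133 and 165 CPM, and Farsb 70.8, 72.2, 48.8 and 62.6 CPM and 61.3, 74.2, 54.97, 62.9 and 62.9 CPM in the same groups. The log2 differences of Aars, Gars and Farsb with ISRIB in old macrophages were -0.07 ± 0.10, 0.05 ± 0.08 and 0.04 ± 0.11. Across the complex, all 8 enzymes had a positive log2 difference with ISRIB in old macrophages, from 0.00 to 0.18, and 7 or 8 of them did under the other scalings and tools. Over all 12171 genes tested there, 6091 were positive. In young macrophages 4 of 8 complex enzymes were positive, and in young monocytes 5 of 8. In old monocytes 2 were positive and 6 negative, from -0.41 to 0.05. None was called in any of these comparisons. The 8 genes were measured in the same libraries, so their signs are not separate evidence. Of 25 ATF4 targets tested in macrophages, 1 was called with both ages averaged, where 0.83% of all genes were. That target was Atf5 (1.02 ± 0.24, edgeR adjusted p 0.0429).

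**Figure D5:**
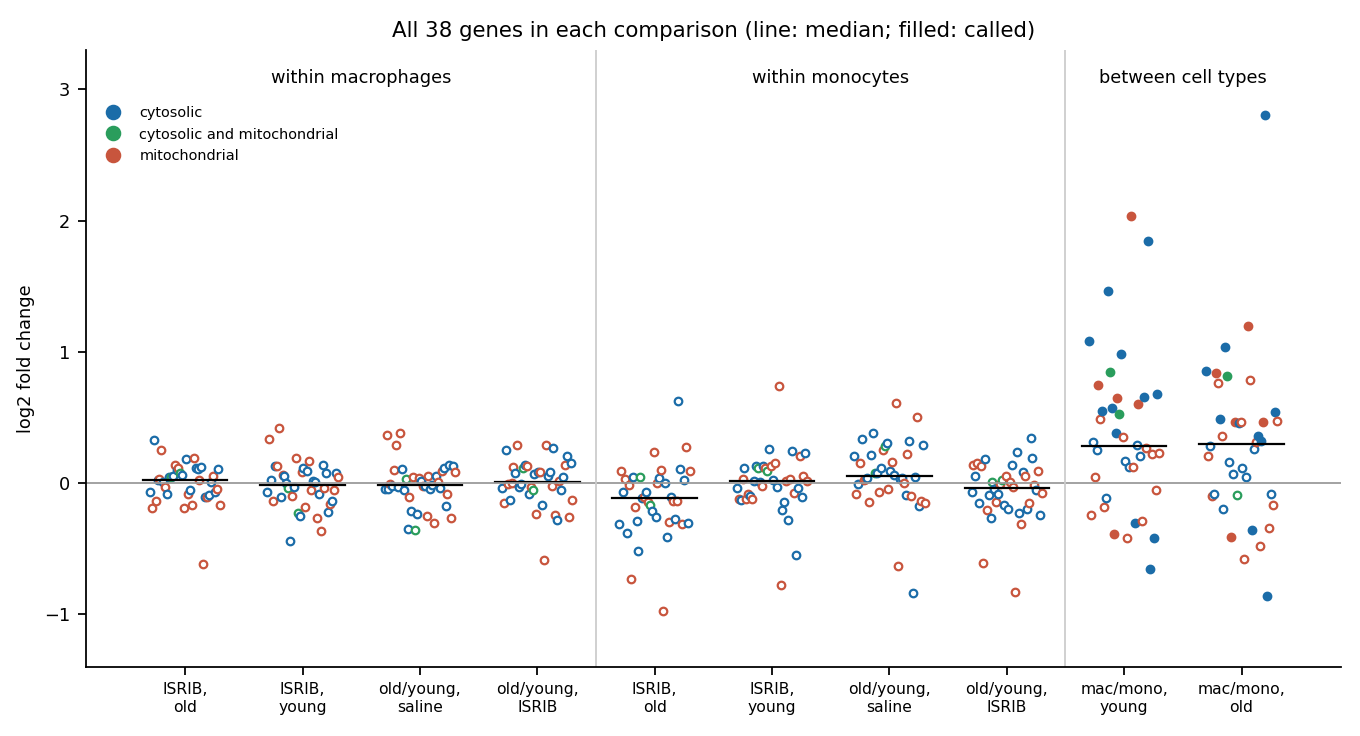
Log2 fold change of the 38 genes in 10 comparisons, 1 point a gene, with the median as a line and filled points for calls at an adjusted p under 0.05. Points of the 8 comparisons within a cell type are open and centre near 0, and filled points appear between cell types.

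Age was compared within each cell type under each treatment. No member was called. Between old and young saline macrophages 0 of 38 were called, against 1.16% of all genes (0.937% higher and 0.222% lower), and with ISRIB 0 of 38 against 0.937%. With treatments averaged it was 0 of 38 against 4.86%. In monocytes 0 of 38 were called with saline, with ISRIB and averaged, against 0.0247%, 0.0% and 0.123% of all genes. At an unadjusted p under 0.05 edgeR counted 4 members in saline macrophages, where 12.7% of all genes were, 3 in ISRIB macrophages (12.2%), 7 in saline monocytes (8.81%) and 0 in ISRIB monocytes (6.6%). With treatments averaged it counted 5 in macrophages (17.8%) and 0 in monocytes (8.24%). DESeq2 called 1 member in saline macrophages, Kars (adjusted p 0.0315), and limma voom none. By contrast 5 of 25 ATF4 targets were called higher and 0 lower in old macrophages with treatments averaged, where 3.12% and 1.74% of all genes were, among them Phgdh (1.05 ± 0.16), Gdf15 (1.30 ± 0.27) and Ppp1r15a (0.82 ± 0.13). In that comparison markers of cell types were called too, higher for 7 of 8 B cell, 2 of 5 T and NK cell, 1 of 4 neutrophil, 1 of 5 dendritic cell and 4 of 10 alveolar macrophage genes. Of 10 monocyte genes 3 were called higher and 4 lower, and of 8 general macrophage genes 1 higher and 1 lower. Their part was not tested.

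Kars, for lysine in both compartments and a member of the complex (ENSMUSG00000031948, chr8:111993443-112011323), had the smallest adjusted p for age in saline macrophages and was called for the difference of its cell type effect between ages. Young saline macrophages held 97.04, 87.5, 86.1, 86.9 and 75.4 CPM and old saline macrophages 60.8, 74.2, 64.2, 75.8 and 62.9 CPM. The young monocyte libraries held 68.7, 53.1, 62.5, 53.4 and 62.6 CPM and old saline monocytes 69.7, 68.5, 79.03, 74.2 and 69.0 CPM. In macrophages old libraries tended to the lower end and in monocytes to the upper end, with overlap in both, while young macrophages lay wholly above young monocytes. Old against young was -0.36 ± 0.10 in macrophages (edgeR adjusted p 0.0641) and 0.28 ± 0.11 in monocytes (adjusted p 0.433 by edgeR). Macrophages were above monocytes by 0.52 ± 0.10 in young mice and differed by -0.09 ± 0.10 in old mice (edgeR adjusted p 3.14e-05 and 0.445). The difference between the ages was -0.62 ± 0.14 (edgeR adjusted p 0.0484), the 1 member called of 38, where 34 genes (0.25%) were called. The call was lost under limma voom, without the filter on low counts, and on omission of 14 of 20 libraries (adjusted p up to 0.111). The 6 whose omission kept it were young saline macrophage replicate 5, old saline macrophage replicates 2 and 4, young saline monocyte replicates 1 and 5, and old saline monocyte replicate 5. With ISRIB young macrophages held 70.96, 65.5, 88.05 and 70.5 CPM, old macrophages 64.7, 74.7, 70.5, 74.05 and 70.9 CPM, young monocytes 59.8, 61.8, 52.1, 65.8 and 78.7 CPM and old monocytes 72.7, 69.7, 58.5, 65.1 and 58.1 CPM, with overlap throughout.

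Among complex enzymes Kars alone was called in that test. The log2 difference between the ages was negative for all 8, from -0.62 to -0.04, and was negative under each scaling and tool run. Over all 13587 genes tested 6550 were negative. Old against young monocytes gave 8 positive differences of 8 with saline and 3 of 8 with ISRIB, and macrophages 1 of 8 and 5 of 8. These comparisons share libraries, so their signs are not separate evidence.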

How the data were processed

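RNA of sorted lung cells was sequenced as polyA-selected libraries on a NextSeq 500, per the labels' protocols. The deposited values are whole-number counts per gene, not normalized, per the file headers and values. The authors named bcl2fastq 2.19.1, FastQC, Trimmomatic 0.36, STAR 2.6.0, HTSeq 0.11.2 and the build mm10, per the submitters' processing notes. The strand setting is not given in the sources used here, so reads of overlapping genes on opposite strands cannot be told apart.

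Counts were tested with edgeR 4.0.16 (quasi-likelihood, TMM, R 4.3.3) after a filter of at least 10 counts, over 19 macrophage, 20 monocyte or all 39 libraries, with Benjamini-Hochberg adjustment over all genes tested and calls at an adjusted p under 0.05. Differences are log2 fold changes ± SE. Levels are CPM after TMM scaling, and lengths are exon unions of GENCODE for GRCm38. Correlations used 100000 permutations, two-sided. Alternatives were size factors of DESeq2, DESeq2 1.42.0, limma voom 3.58.1, no filter, a replicate block, 1 fit of all libraries, and omission of each library. The procedure was tested on simulated data. Members described with every saline library were the 5 largest fold changes in each direction between cell types, the first and last by level in each compartment, and any called within a cell type. A gene that met this rule and a sequence are not reported here. Other list genes were named when called, at most 5 a list and comparison. Members and lists were chosen with earlier results of these data known.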

Additional observations from a re-analysis of the deposited data

Results flagged for a closer look

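Among 128 combinations of 16 described members and 8 groups, 6 held 1 library far from the other 4 by Dixon's criterion, and chance alone gives about 1 in 20. Farsb was 33.5 CPM in old saline monocyte replicate 2, with the next library at 29.2 CPM. Gars was 101.9 CPM in young saline monocyte replicate 1 (next 82.1 CPM), and 80.5 CPM in old ISRIB monocyte replicate 4, the lowest of its group (next 91.5 CPM). Hars was 55.6 CPM in young saline monocyte replicate 4 (next 37.8 CPM). Wars was 119.6 CPM in old ISRIB monocyte replicate 1 (next 73.0 CPM) and 82.3 CPM in old saline macrophage replicate 4 (next 71.5 CPM). The difference of Kars between macrophages and monocytes was smaller in old than in young saline mice. The test of that difference gave -0.62 on the log2 scale (edgeR adjusted p 0.0484). This call was lost on omission of 14 of 20 libraries.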

How the results depend on the processing

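Counts of members called were within 1.5 times the reported count under every alternative in 14 of 17 comparisons. Apart from macrophages against monocytes in young and in old mice, these 14 had a count of 0 throughout. DESeq2 called 1 member for ISRIB in young macrophages (Hars) and 1 for age in saline macrophages (Kars), where 0 were called by edgeR. With 1 library left out the count for age in saline macrophages ranged from 0 to 2, with Kars called without young replicate 5 (adjusted p 0.0403), and Kars (0.0397) and Hars (0.0337) called without old replicate 2. For the difference of the cell type effect between ages, the count was 0 under limma voom and without a filter, and 0 to 1 with 1 library left out. With a replicate block it was 0 too, and the block moved no other count by over 1.5 times. Replicate numbers did not pair the libraries: 2 of 27 correlations of same-numbered macrophage libraries and 4 of 30 of monocyte libraries were over 0.1. Between cell types the count ranged with 1 library left out from 17 to 22 in young and from 14 to 16 in old mice. For 46 results of single members that were called or were followed for a small p, 756 values under alternatives were computed, of which 713 kept direction and call, 38 lost and 5 gained a call, and 0 reversed. Over all members and comparisons 21 calls were gained under an alternative. The cause of these changes was not tested, and low counts of several mitochondrial enzymes left their intervals wide.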
